A study of Mus musculus with 3 samples.

Results

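Antisense genes are transcribed from the strand opposite a protein-coding gene, and the 169 antisense noncoding genes described here are those with RNA at a set level on the chromatin of Lipid A-stimulated mouse macrophages. They were chosen as the genes whose annotated transcripts all have the class antisense, selected on a mean level of at least 5 TPM (read counts divided by effective length and scaled to 1 total per library) and an expected count of at least 20 in each of the 3 libraries. Of 55536 annotated genes, 2948 held only antisense transcripts, 1581 of these had a count in some library, and 169 met both thresholds. The rule left out 3 imprinted or X-linked antisense genes by name, of which 2 would have passed. The levels chose the members, so the levels are a description and were not tested.

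RNA of the chromatin fraction was taken from bone-marrow-derived macrophages of strain C57BL/6J and sequenced after ribosomal RNA had been depleted. All 3 form 1 group: the cells received 100 ng/ml Lipid A for 12 h, were washed out for 12 h, and were then given 100 ng/ml Lipid A for 60 min. No untreated arm, whole-cell RNA or other time was analysed here, so nothing below is a response to Lipid A. The labels give the same donor entry and separate biosamples, and do not say whether the 3 replicates came from separate animals, so p-values cover only the variation among the 3 samples, which may be technical.

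Antisense genes are named for where they lie, and they include genes that start divergently beside a coding promoter, genes inside a coding gene and genes that meet the coding gene at its end. RNA bound to chromatin is rich in nascent and retained transcripts, so that introns and unstable noncoding RNA are better represented than in whole-cell RNA. Lipid A is the part of bacterial lipopolysaccharide that activates TLR4, which signals through NF-kB and interferon regulatory factors.

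The start windows of 6 members are printed as examples and do not give the range of sequence over all members. RefSeq windows (250 bases before to 50 after a start, GRCm38.p6) matched 55 of the 169 members by symbol and strand, and 38 of those lay within 100 bases of an annotated start of the member. The first 3 windows belong to the members of highest level among the windows that hold no coding exon, and the last 3 are the windows of that kind with a match to the NF-kB motif. Capitals mark matches on either strand to the motifs searched: the TATA box TATAAA, the AP-1 motif TGANTCA, the core of the PU.1 motif GAGGAA, and by name the interferon response element and NF-kB motifs.
4930405A10Rik: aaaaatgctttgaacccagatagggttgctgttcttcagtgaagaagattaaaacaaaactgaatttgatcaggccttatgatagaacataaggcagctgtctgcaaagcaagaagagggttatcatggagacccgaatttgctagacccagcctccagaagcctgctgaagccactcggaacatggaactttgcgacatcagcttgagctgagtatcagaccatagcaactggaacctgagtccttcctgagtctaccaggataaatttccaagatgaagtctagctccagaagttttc
F630028O10Rik: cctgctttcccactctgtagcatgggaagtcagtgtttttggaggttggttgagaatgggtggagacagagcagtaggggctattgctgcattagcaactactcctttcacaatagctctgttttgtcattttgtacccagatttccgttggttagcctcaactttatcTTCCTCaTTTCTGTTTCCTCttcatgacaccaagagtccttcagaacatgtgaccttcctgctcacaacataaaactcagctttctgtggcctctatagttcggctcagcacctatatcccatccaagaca
Tug1: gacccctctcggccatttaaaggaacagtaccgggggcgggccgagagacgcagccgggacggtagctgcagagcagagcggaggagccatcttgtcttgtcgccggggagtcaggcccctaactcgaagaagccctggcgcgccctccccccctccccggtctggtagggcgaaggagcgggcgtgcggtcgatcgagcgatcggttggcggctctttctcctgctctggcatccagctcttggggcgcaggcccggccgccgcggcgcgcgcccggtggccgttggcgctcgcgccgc
1700099I09Rik: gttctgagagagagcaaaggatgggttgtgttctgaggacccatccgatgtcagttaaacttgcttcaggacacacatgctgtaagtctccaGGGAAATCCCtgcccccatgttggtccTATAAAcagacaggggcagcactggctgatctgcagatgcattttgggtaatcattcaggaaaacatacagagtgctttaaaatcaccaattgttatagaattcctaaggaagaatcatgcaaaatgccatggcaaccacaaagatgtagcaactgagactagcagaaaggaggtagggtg
Gm17227: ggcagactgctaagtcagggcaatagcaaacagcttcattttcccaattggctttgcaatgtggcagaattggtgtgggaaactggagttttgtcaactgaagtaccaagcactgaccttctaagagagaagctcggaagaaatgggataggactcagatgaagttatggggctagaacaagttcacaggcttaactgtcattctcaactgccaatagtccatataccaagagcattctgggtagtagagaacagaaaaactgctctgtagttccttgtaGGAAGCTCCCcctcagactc
1700095J12Rik: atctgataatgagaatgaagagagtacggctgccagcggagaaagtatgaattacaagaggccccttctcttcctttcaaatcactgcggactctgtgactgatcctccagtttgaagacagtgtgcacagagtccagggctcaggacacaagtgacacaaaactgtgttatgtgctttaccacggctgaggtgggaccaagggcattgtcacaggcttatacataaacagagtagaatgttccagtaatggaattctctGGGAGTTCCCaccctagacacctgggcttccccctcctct
Of these windows, 4930405A10Rik is chr14:22542749-22543048 on the minus strand, F630028O10Rik is chrX:96239676-96239975 on the plus strand and Tug1 is chr11:3648765-3649064 on the minus strand. The window of 1700099I09Rik is chr13:102760005-102760304 on the plus strand, that of Gm17227 is chr19:7297435-7297734 on the plus strand, and that of 1700095J12Rik is chr4:138138469-138138768 on the minus strand. Tug1, which starts divergently from Morc2a, had 37 CpG dinucleotides in its window and a GC content of 71.3%. The windows of 4930405A10Rik and F630028O10Rik had 3 and 2 CpG. In the F630028O10Rik window the matches to GAGGAA and to the interferon response element motif lie on the opposite strand, and some of them overlap.

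The NF-kB motif was found in 7 of the 38 member windows (18.4%), against 8.46% of all 32851 RefSeq windows. GAGGAA was found in 12 of 38 (31.6%, against 28.3% of all) and the interferon response element motif in 2 (5.26%, against 3.44%). TATAAA was found in 2 of 38 (5.26%, against 13.6%) and TGANTCA in 1 (2.63%, against 7.81%). Median GC was 53.2% in member windows and 52.7% in all, and the median number of CpG was 11 and 7. Of the 7 windows with the NF-kB motif, those of Gm16892, Gm16794, 4930539J05Rik and Gm42067 also hold exons of coding genes. A match is a description of letters and not a bound site.

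Libraries differed in depth, in starting RNA and in the presence of other cells. Replicate 1 started from 1000 ng and had 12602702 gene counts, replicate 2 started from 250 ng and had 17222239, and replicate 3 started from 500 ng and had 17042691. A floor of 3 counts was 0.238, 0.174 and 0.176 CPM (counts scaled to library size). All 12 macrophage markers were above 3 counts in each library, with a median of 73.3 ± 2.30 TPM (SD, n = 3), and none of the 8 neutrophil markers was above 3 counts in any library. The 12 fibroblast markers summed to 5, 57148 and 130 counts, so replicate 2 stood apart. Fewer cells of a type and less RNA per cell cannot be told apart in these bulk samples.

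The members made up a small share of chromatin RNA, with a few of them at the level of well-expressed coding genes. Their expected counts summed to 0.594, 0.409 and 0.451% of all gene counts in replicates 1, 2 and 3, or 0.485% ± 0.0971 (SD, n = 3). Their summed level was 3777 ± 158 TPM of the 5323 ± 198 TPM of all antisense genes. The median member stood at 10.5, 12.3 and 12.0 TPM, against 0.510 ± 0.104 TPM for all antisense genes with a count and 2.51 ± 1.29 TPM for the 15865 protein-coding genes with a count. Mean TPM reached 10 in 102 members, 20 in 51, 50 in 11 and 100 in 7. Those 7 held 30.5% ± 2.92 of the members' summed TPM.

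Of the 7 members at 100 TPM or more, 3 lie opposite Tnfaip2, Ikbke and Cd274. Gm40578 (chr12:111450405-111500840, minus strand) had 184, 186 and 270.4 TPM in replicates 1, 2 and 3. It runs tail-to-tail into Tnfaip2, a gene induced by tumour necrosis factor, which had 1756 ± 501 TPM. Gm28913 (chr1:131263330-131266749, plus strand) had 193, 222 and 192 TPM, and 527, 519 and 520 TPM in the second, kallisto-layout quantification. It lies inside Ikbke, which encodes the kinase IKK-epsilon that activates interferon regulatory factors and had 1447 ± 123 TPM. AC119228.1 (chr19:29373417-29384471, minus strand) had 167, 201 and 123 TPM inside Cd274, the gene of the checkpoint ligand PD-L1, which had 240 ± 49.2 TPM. Replicate 3 was highest for Gm40578 and lowest for AC119228.1, so the libraries took no common order over these genes.

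Gm28913 shows how such a gene lies against its partner. Its 1 transcript has 2 exons of 364 bases in all, of which 65 are opposite an exon of Ikbke and none opposite an untranslated part. The first 150 bases follow, 5′ to 3′ from the GENCODE M21 transcript sequence, with the bases opposite an Ikbke exon in capitals.
Gm28913: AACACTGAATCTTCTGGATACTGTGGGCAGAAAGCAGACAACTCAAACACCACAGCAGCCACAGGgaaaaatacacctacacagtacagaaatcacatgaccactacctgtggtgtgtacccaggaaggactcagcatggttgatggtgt
The capitals are the whole first exon (chr1:131263330-131263394), and the second exon (chr1:131266451-131266749) lies in an Ikbke intron.

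The 4 other members above 100 TPM differed in how they stood to their partners. 4933423P22Rik (chr2:90479236-90488425, plus strand) had 204, 184 and 204 TPM. It lies inside Ptprj, a receptor tyrosine phosphatase gene with 145, 86.4 and 146 TPM, and was the higher of the pair in each library. Gm37787 (chr1:171634879-171636022, plus strand) had 208, 82.7 and 114 TPM inside Slamf7, a SLAM-family receptor gene at 478 ± 64.1 TPM. Gm7480 (chr14:22032086-22036103, minus strand) had 156, 94.9 and 65.6 TPM inside Lrmda, which had 98.9 ± 10.2 TPM. Gm7480 and Gm37787 were both highest in replicate 1, and Gm7480 lay above Lrmda there and below it in the other two. Gm16094 (chr1:85599286-85599839, plus strand) had 132, 104 and 158 TPM (330, 173 and 295 in the kallisto-layout tables), overlaps no coding gene on the opposite strand, and starts 469 bases from Sp110, which encodes a nuclear body protein.

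The next 5 members by level ran from 49.4 to 60.1 TPM. Gm16712, tail-to-tail with the IL-27 subunit gene Ebi3, had 61.0, 39.9 and 79.4 TPM, and lay above Ebi3 (40.5 ± 11.9 TPM) by 0.55 ± 0.09 on the log2 scale. Gm43221 had 67.5, 47.8 and 62.8 TPM inside Fam102b, and Gm12000 had 54.9, 43.0 and 78.0 TPM inside Ikzf1, the gene of the transcription factor Ikaros. These 3 members were lowest in replicate 2. Gm28914, the second member inside Ikbke, had 58.4, 64.6 and 50.1 TPM and was highest in replicate 2. Gm20234, which overlaps the Schlafen family gene Slfn2, had 81.6, 29.7 and 36.8 TPM and was highest in replicate 1. Genes with close copies in the genome, such as those of the Schlafen, Bcl2a1, Raet1 and Sp110 families, could share reads, and values at these loci are uncertain for that reason.

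**Figure D1:**
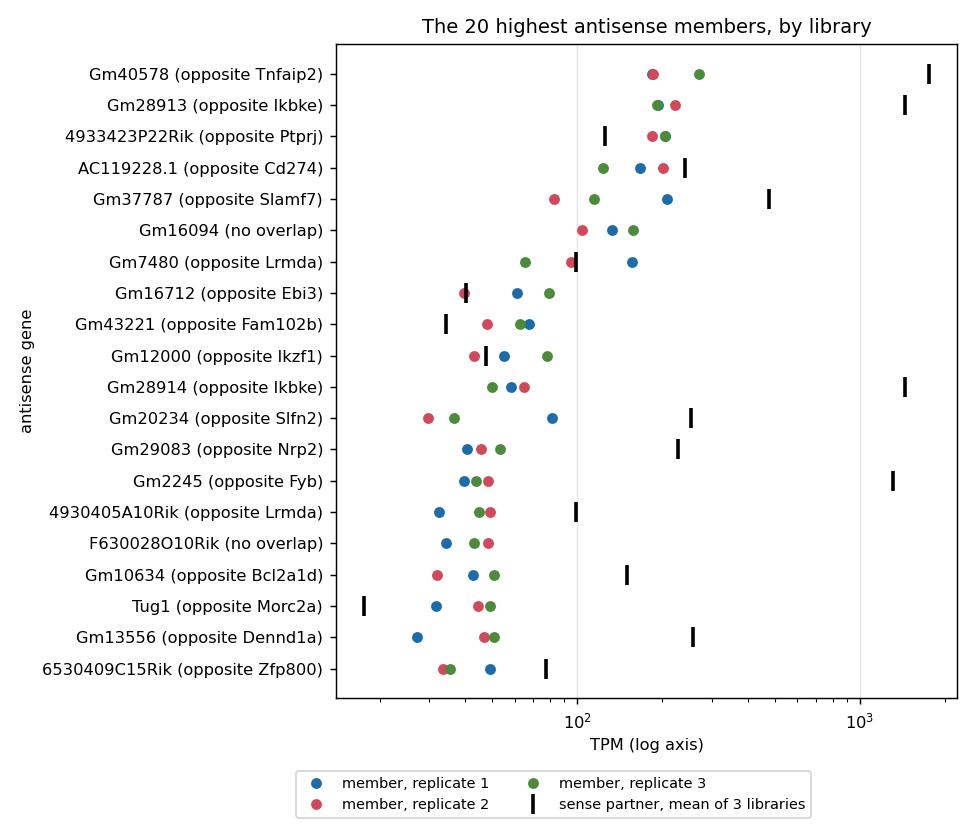
TPM (log axis) of the 20 highest antisense genes in each of the 3 libraries (coloured points), with the mean TPM of the coding gene on the opposite strand (black bars). Gm40578, Gm28913 and Gm2245 lie far below partners of over 1000 TPM, while 4933423P22Rik and Tug1 lie above theirs.

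Close to the threshold the levels of members and non-members run together. The lowest members by mean TPM were Gm34882 at 5.26, Gm15991 at 5.24, Gm37305 at 5.13, Gm26542 at 5.11 and Gm26947 at 5.02. The antisense genes just below were Gm11672 at 4.93, Bcas3os1 at 4.92, Gm10425 and Gm3235 at 4.87 and CT010502.1 at 4.81. The SD between libraries was 0.866 TPM for Gm34882, 1.74 for Gm15991, 2.68 for Gm11672 and 2.22 for Bcas3os1, so the order of these genes is within the spread. A further 30 antisense genes had a mean TPM of at least 5 but fewer than 20 counts in a library. Among them were Gm17160, with 43, 18 and 12 counts, and Gm15655, with 0, 72 and 65.

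Most members lie across or inside a coding gene, as their class says. A protein-coding gene on the opposite strand overlapped 161 of the 169 members (95.3%, against 92.3% of all 2948 antisense genes), with 146 different partners. Of the members, 109 (64.5%) were contained in the span of the partner, against 54.1% of all antisense genes, and 27 (16.0%) met it tail-to-tail, against 14.1%. Start sites lay within 1000 bases of the partner's in 12 members that overlap it (7.10%, against 11.2%) and in 1 that does not, Gm16094. A further 9 started inside the partner and ran out of it, and 4 spanned it. No overlap was found for 7 members: F630028O10Rik, Gm15445, Gm11455, 4930430E12Rik, Gm12981, Gm15859 and Gm26947. Against its class, F630028O10Rik (chrX:96239926-96243636, plus strand) had 34.4, 48.2 and 43.1 TPM with no coding gene opposite it.

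Members lie mostly opposite introns. The median member had 85.2% of its exonic bases opposite introns of the partner and 5.91% opposite its exons. For the 2559 other antisense genes with a partner the medians were 67.4 and 7.19%. At least 90% of the exonic bases were opposite introns in 72 of 161 members (44.7%) and in 917 of the others (35.8%). None was opposite an exon in 62 members (38.5%) and in 1043 others (40.8%), so that share was close in both. The members had a median of 1448 exonic bases, against 892 for the other antisense genes, 155 had 2 or more exons, and 110 had 1 annotated transcript.

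Several coding genes had more than 1 member on their opposite strand. There were 12 such partners, with 27 members, so these members share a locus and are not independent. Arhgap10, at 98.5 ± 18.2 TPM, had 4 (0610038B21Rik, Gm45285, Gm45406 and 4933421D24Rik). Lrmda had 3 (Gm10248, Gm7480 and 4930405A10Rik). The others included Ikbke, Sp140, Cdk6, Etv6, Atxn7l1 and Zhx2, with 2 each. Atxn7l1os1 and Atxn7l1os2 lie opposite Atxn7l1 at 79.5 ± 7.32 TPM.

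The partners of members were themselves well represented on chromatin. The rule did not use partner levels directly. No label states whether reads were assigned by strand, so partner reads could have helped a member to pass, which was not tested. Their median was 48.8, 58.1 and 59.9 TPM in replicates 1, 2 and 3, or 55.6 ± 5.96 TPM (SD, n = 3). The partners of the other 2559 antisense genes had medians of 0.390, 1.42 and 0.430 TPM. Only 1337 of those 2559 genes had a count themselves, and how far the contrast comes from the choice by level was not tested. Partners reached a mean of 10 TPM for 142 of 161 members (88.2%) and for 566 of 2559 others (22.1%). They reached 100 TPM for 32 members (19.9%) and 56 others (2.19%), and were under 1 TPM for 5 members and for 1340 others. Across the 161 pairs the level of member and partner had a Spearman correlation of 0.33 and a Pearson r of 0.36, a description over genes that share the same 3 libraries and often the same locus.

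The member was usually the lower of the pair. The median log2 ratio of member over partner, with 0.1 TPM added to both, was -1.97, -1.99 and -1.75, or -1.91 ± 0.13 (SD, n = 3). The member was below its partner in every library in 131 of 161 pairs and above it in every library in 22. Among the 131 were 22 pairs in which it was at most 0.1 times the partner in every library. By arrangement the median ratio was -2.02 ± 0.18 for the 109 contained members, -1.85 ± 0.08 for the 27 tail-to-tail and -1.05 ± 0.31 for the 12 head-to-head with overlap. It was -2.37 ± 0.46 for the 9 that start inside the partner and -0.64 ± 0.05 for the 4 that span it. These medians rest on few genes outside the contained class and were not tested against each other.

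**Figure D2:**
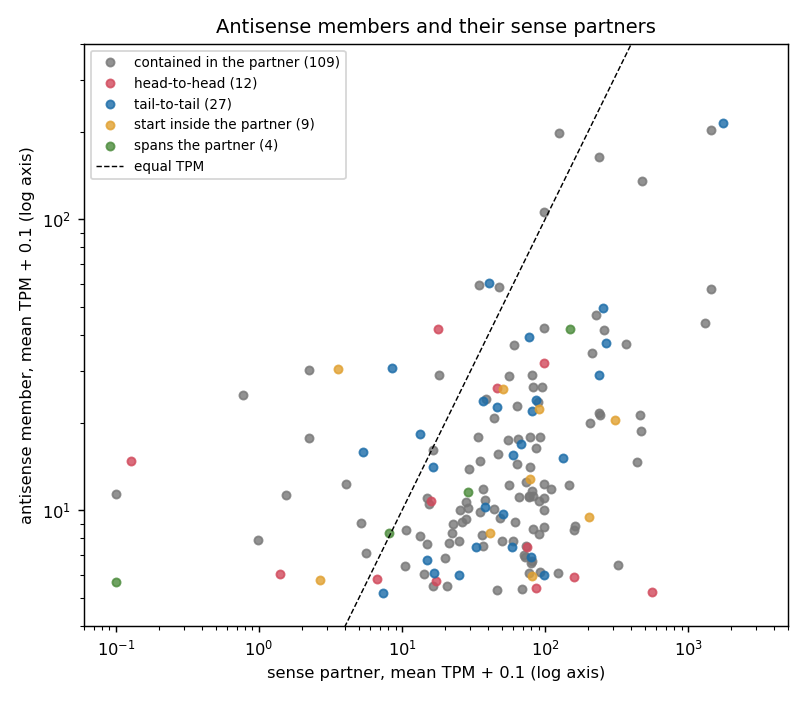
Mean TPM + 0.1 of each of the 161 members with a partner (vertical, log axis) against that of the partner (horizontal, log axis), coloured by arrangement, with the line of equal level dashed. Most points lie right of the line, and 142 partners are at 10 TPM or more.

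At the low end stood members opposite abundant coding RNAs. Gm37305 (chr3:65957758-65962036, plus strand) had 3.58, 5.91 and 5.91 TPM and starts 491 bases from Ccnl1, a cyclin gene of splicing and transcription, at 478, 574 and 624 TPM. Its log2 ratio was -6.77 ± 0.23. Gm7008 inside Ifrd1 had 9.18, 5.36 and 4.69 TPM and a ratio of -5.67 ± 0.78. Gm15701 inside Rasa4, a Ras GTPase-activating protein gene, had 19.5, 9.11 and 15.2 TPM and a ratio of -4.97 ± 0.63. Gm2245 inside Fyb, the gene of an adaptor protein of immune cells at 1304 ± 67.3 TPM, had 39.8, 48.5 and 43.7 TPM and a ratio of -4.89 ± 0.07. 4930539J05Rik, divergent from the ubiquitin-conjugating enzyme gene Ube2d3, had 6.56, 5.48 and 5.31 TPM and a ratio of -4.75 ± 0.48. All 5 were below the partner in each library.

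At the high end the partner was at 1.32 TPM or less in each library, apart from Loxl2 in replicate 2. Gm17056 had 15.5, 14.5 and 13.9 TPM, while Lsmem1 was listed at 0, 0 and 0.08. Etohd2 had 8.77, 12.6 and 12.3 TPM and Gm47079 had 4.32, 5.76 and 6.61, with Gm49354 and Icam4 listed at 0 TPM in all libraries, so no fold is given for these 3. Gm26740 had 14.8, 35.8 and 24.2 TPM opposite Raet1e, a ligand gene of the receptor NKG2D at 0.200, 1.32 and 0.510 TPM, a log2 ratio of 5.2 ± 0.5. Gm27177 had 20.3, 20.6 and 50.6 TPM opposite Loxl2, a matrix cross-linking enzyme gene at 0.560, 9.74 and 0.05 TPM. Its ratio of 4.81 ± 3.67 ran from 8.40 in replicate 3 to 1.07 in replicate 2. Loxl2 was highest in replicate 2, the library with the fibroblast marker counts, and the part of those cells in the ratio was not tested.

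Of the 13 members with a start close to the partner's, 4 were above 20 TPM: Gm16094, Tug1, 0610038B21Rik and Gm45472. Tug1, a conserved long noncoding RNA, had 31.7, 44.6 and 49.1 TPM, above Morc2a, a gene of chromatin silencing at 17.6 ± 7.75 TPM, by 1.31 ± 0.47 on the log2 scale. 0610038B21Rik had 24.4, 33.0 and 38.1 TPM and starts 897 bases from Arhgap10. Gm45472 had 26.4, 28.9 and 23.3 TPM opposite Lpcat2, a phospholipid acyltransferase gene at 45.7 ± 11.1 TPM. 1600020E01Rik had 6.35, 11.9 and 13.8 TPM and starts 74 bases from Pcbp1, an RNA-binding protein gene at 15.8 ± 6.2 TPM. Gm11696, Gm42067 and Gm30934, opposite Gna13, Dpf2 and Atp5l, had 7.40 ± 2.31, 5.33 ± 0.336 and 5.60 ± 0.380 TPM.

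Members opposite other regulatory genes, picked after their values were seen, had means of 9.42 to 34.5 TPM. Aknaos opposite Akna had 44.7, 27.9 and 31.0 TPM. Kdm6bos, opposite the histone demethylase gene Kdm6b (85.7 ± 10.3 TPM), had 20.4, 12.3 and 16.0. Gm45479 inside Irf2, an interferon regulatory factor gene, had 21.7, 30.6 and 18 TPM. Gm17017, tail-to-tail with Sp140, had 29.1 ± 3.67 TPM, and Gm10552, inside Sp140, had 21.5 ± 9.80. Gm26885, opposite the kinase gene Pim1 at 202 ± 28.5 TPM, had 9.42 ± 1.75 TPM. Gt(ROSA)26Sor, known as a site for transgene insertion and named here for that rather than for its partner Thumpd3, had 9.79, 14.7 and 17.4 TPM. Replicate 1 was the highest library for Aknaos and Kdm6bos and the lowest for Gt(ROSA)26Sor.

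Lists of genes of the TLR4 response held members at a share near that of all coding genes. Over 6 lists with 140 coding genes (NF-kB feedback and subunits 17, interferon-stimulated 35, chemokines 15, cytokines and mediators 22, immediate early genes 27, TLR4 pathway 24), 2 genes had a member opposite them or starting within 1000 bases, both of the TLR4 pathway. That is 1.43%, against 164 of the 10011 coding genes at 1 TPM or more (1.64%) and 36 of the 608 at 100 TPM or more (5.92%). The 2 are Ikbke, with Gm28913 and Gm28914, and Irak3, which encodes an inhibitory member of the IRAK family. Gm47009 inside Irak3 had 8.75, 9.83 and 9.27 TPM, and Irak3 had 48.1 ± 7.74. Most of the listed genes were above 3 counts in each library. That held for 14 of 15 chemokines, 19 of 22 cytokines and mediators and 25 of 27 immediate early genes. It held for all genes of the NF-kB, interferon-stimulated and TLR4 pathway lists. The median of a list was 135 ± 12.2 TPM for NF-kB feedback, 185 ± 28.6 for interferon-stimulated genes and 114 ± 14.9 for chemokines. It was 37.7 ± 3.54 for the TLR4 pathway, 15.2 ± 9.32 for cytokines and 13.0 ± 0.917 for immediate early genes.

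Of 13 noncoding genes known from immune cells that were looked up by name, 12 were found, and only Dnmt3aos, Gm16685 and Gm15441 are of antisense class alone and could have been members. Dnmt3aos had 2.40, 3.57 and 1.92 TPM, Gm16685 had 3.20, 1.25 and 2.87, and Gm15441 had 0.27, 0 and 0, all under the level threshold. Ptgs2os, beside the prostaglandin synthase gene Ptgs2, had 0.510, 0.250 and 1.03 TPM. Mir155hg (332 ± 138 TPM) and Lncpint (313 ± 21.2 TPM) were higher than any member but belong to another class.

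Because members lie mostly opposite introns and chromatin RNA is rich in introns, it matters whether reads were assigned by strand, which no label or header states. As a comparison, 205 antisense genes, members among them, were set beside 121 genes of class sense-intronic. The 205 lie wholly within introns of a partner at 10 TPM or more. The 121 lie in introns on the same strand as a host of that level. The host was the containing coding gene of highest mean TPM, whereas the partner was the gene of largest overlap, so the rules differ. The median log2 ratio to the host was -3.80 ± 0.03 for the antisense genes and -3.45 ± 0.10 for the sense-intronic genes (SD, n = 3). At least 5 TPM was reached by 55 of 205 (26.8%) and 48 of 121 (39.7%). In the second quantification, in kallisto's layout, the ratios were -2.66 ± 0.24 and -2.57 ± 0.29. For members opposite introns, transcription of the antisense strand and intronic reads of the partner assigned without strand cannot be told apart from these tables.

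**Figure D3:**
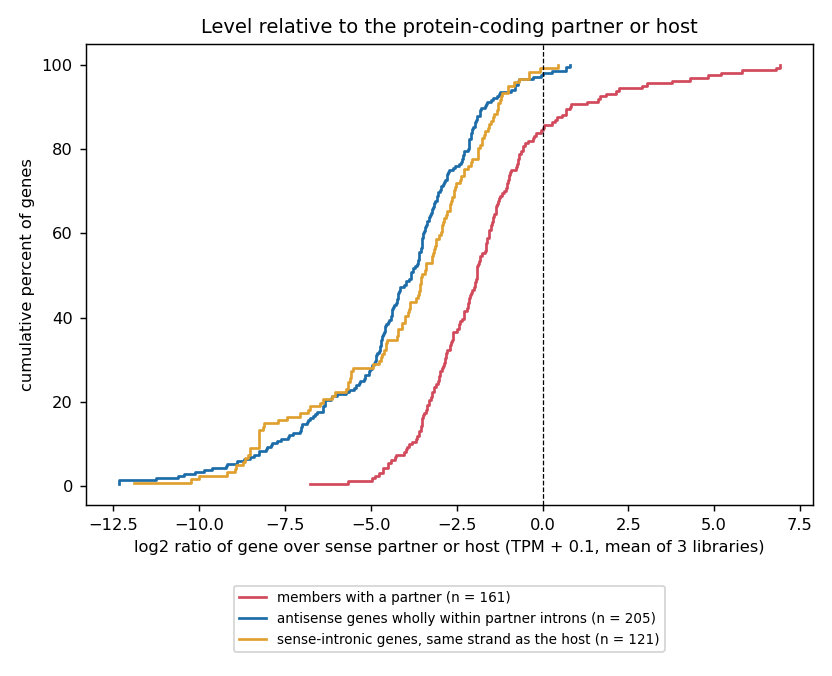
Cumulative percent of genes (vertical) by log2 ratio of the gene's TPM to that of its partner or host (horizontal, 0.1 TPM added, mean of 3 libraries). The members (red), chosen for their level and with partners of any level, lie to the right. The curves of intronic antisense genes (blue, median -3.80, members among them) and sense-intronic genes (orange, median -3.45) run close together. For the blue and orange curves the partner or host was at 10 TPM or more.

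Differences between libraries were also set beside those of the partners. The log2 CPM difference of replicate 3 and replicate 2 had a Spearman correlation of 0.66 between member and partner over the 109 members wholly within the partner's span and 0.44 over the 52 with exons partly outside it. For replicates 3 and 1 the Spearman correlation was 0.60 and 0.23, and for replicates 2 and 1 it was 0.49 and 0.49. Pearson's r over the same 109 and 52 members was 0.55 and 0.10 for replicates 3 and 2, 0.57 and 0.03 for replicates 3 and 1, and 0.33 and 0.26 for replicates 2 and 1. For the members partly outside the partner, r was thus near 0 in 2 of the 3 pairs of libraries. These are descriptions across genes of the same libraries, with no value for unrelated gene pairs beside them.

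Nearly all members also reached the level threshold in the second quantification. Of 169 members, 165 had at least 5 TPM in the kallisto-layout tables, and their median was 16.8 ± 2.49 TPM. In that quantification 502 antisense genes would pass both thresholds. The fold between tables followed length: the median was 2.07 for the 20 members under 600 exonic bases, 1.45 for the 66 of 600 to under 1500 bases and 1.00 for the 83 of 1500 bases or more. A level at least 2 times higher was found for 13, 15 and 9 of these. Short members therefore have levels that depend on the table read.

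The members that differed most were higher in the kallisto-layout tables by large margins. Gm44649, inside the scaffold protein gene Iqgap1, had 17.9, 16.1 and 21.7 TPM in the gene tables and 115, 140.0 and 158 TPM in the others. Gm20234 had 341, 259 and 364 TPM there. Gm15556 opposite Foxp4 had 7.23, 7.63 and 7.46 TPM against 37.7, 47.0 and 61.1. 2900089D17Rik opposite Bri3 had 19.3, 26.8 and 32.0 against 139.9, 155 and 124, although it has 2583 exonic bases. Gm26679 inside Mbnl2, a splicing regulator gene, had 12.1, 6.16 and 7.02 against 43.9, 33.5 and 44.2.

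In the other direction, 4 members were under 5 TPM in the kallisto-layout tables (Gm26716, Gm17139, Gm7008 and Gm47079), and the first 2 were at or near 0. Gm26716 (chr4:130824394-130826313, minus strand) had 6.45, 12.3 and 10.6 TPM in the gene tables and 0 in all kallisto-layout tables. Gm17139 (chr12:84918148-84919238, plus strand) had 4.65, 8.93 and 6.63 TPM against 0, 0 and 0.165. Both lie entirely opposite exons of their partners, Sdc3 and Arel1, and no other member does to 90% or more. Gm15512, with 63.3% of its bases opposite exons of Arhgap22, had 23.1, 14.8 and 27.7 against 12.8, 7.54 and 14.9. Gm19412, with 85.3% opposite exons of the peptide-loading gene Tapbp, had 4.61, 12.4 and 9.25 against 5.19, 6.75 and 5.95. Gm47079 had 3.84 ± 0.663 TPM and Gm7008 had 4.96 ± 2.12 TPM in the kallisto-layout tables. The levels of Gm26716 and Gm17139 rest on the alignment-based tables alone.

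**Figure D4:**
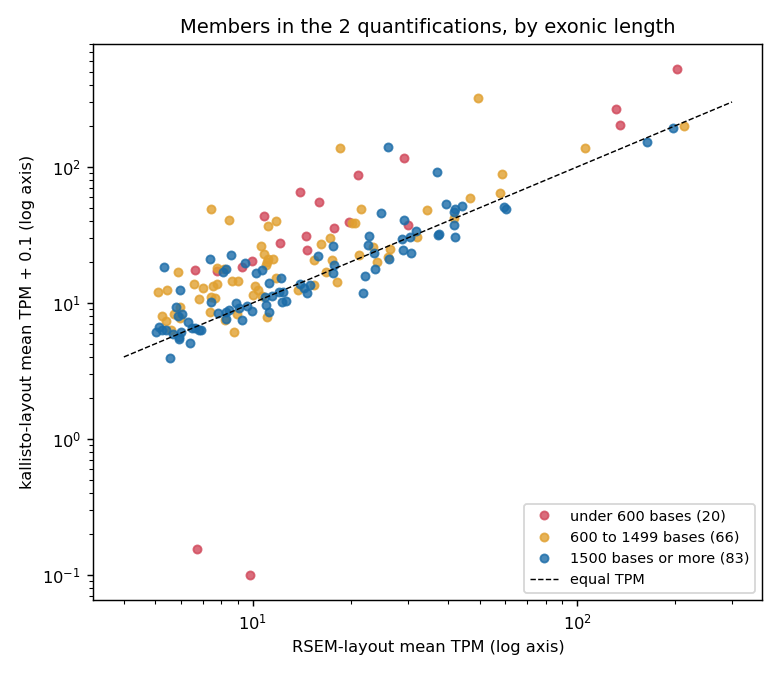
Mean TPM of the 169 members in the kallisto-layout tables (vertical, 0.1 added, log axis) against the RSEM-layout gene tables (horizontal, log axis), coloured by exonic length. Of the 20 members under 600 bases, 13 lie at least 2 times above the line of equal level. Gm26716 and Gm17139, of 415 and 571 bases, lie alone at the bottom.

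Between the 3 libraries, CPM was highest in replicate 1 for most members, but TPM was not. By CPM, 110 members were highest in replicate 1, 21 in replicate 2 and 38 in replicate 3, while 32.0% of the 10767 genes in the same range of counts were highest in replicate 1. By TPM the numbers turned to 38, 69 and 62. With CPM divided by TMM factors they were 94, 6 and 69. No share over all genes was taken for TPM or for CPM with TMM factors. On those scales members were therefore not set beside other genes. The median coefficient of variation of CPM was 29.1% for members and 24.2% for those 10767 genes, and without replicate 1 the members' median was 15.9%. Mean fragment lengths implied by the effective lengths in the kallisto-layout tables were 145 bases in replicate 1, 218 in replicate 2 and 221 in replicate 3. The labels give fragments of 250 to 400 bases for all 3 libraries, above each implied value.

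The members with the widest spread were highest in replicate 1 in each case. Gm15726, inside the ubiquitin ligase gene Mid1, had 10.2, 1.17 and 2.44 CPM and a coefficient of variation of 106%. Gm20234 had 53.5, 10.3 and 14.4 CPM (91.6%). 4930430E12Rik, which overlaps no coding gene, had 164, 65 and 43 counts (89.0%). Gm15629 inside Lcp1, the gene of an actin-bundling protein, had 148, 49 and 48 counts (88.3%). Gm37787 had 105, 20.2 and 32.1 CPM (87.3%).

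The starting RNA is the 1 labelled difference between libraries, and its slope was fitted over all genes. edgeR's quasi-likelihood test with Benjamini-Hochberg adjustment called 4 of 169 members at an adjusted p under 0.05, all higher with more starting RNA, against 1.56% of all 14001 genes tested (219 genes, with 0.614% of all tested higher and 0.95% lower). The slope is the log2 change in counts for each doubling of starting RNA. By that test it was 1.26 for Gm37787 (SE 0.234, adjusted p = 0.0061), 1.27 for Gm20234 (SE 0.248, adjusted p = 0.0098), 1.65 for Gm15726 (SE 0.332, adjusted p = 0.012) and 1.23 for Gm16006 (SE 0.297, adjusted p = 0.037). Gm16006, inside the transcription factor gene Zhx2, had 40.1, 16.6 and 33.8 TPM. Their partners Slamf7, Slfn2, Mid1 and Zhx2 had slopes of 0.59, 0.50, 0.50 and 0.54, and in the same edgeR fit with Benjamini-Hochberg adjustment none was called (adjusted p = 0.52 to 0.79). Whether the slope of a member differs from that of its partner was not tested. With DESeq2's size factors in edgeR 4 members were called (1.83% of all genes), with the DESeq2 Wald test 2 (1.72%), and with edgeR and no low-count filter 12 (5.47%). On the kallisto-layout counts edgeR called 0 members (0.22% of all genes). There its unadjusted p was under 0.05 for 29 of 167 members and 1709 of 23176 genes. In the main edgeR fit the unadjusted p was under 0.05 for 41 of 169 members and 1334 of 14001 genes.

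Slopes were larger for shorter members. Of 169 members, 147 had a positive slope, with a median of 0.30, where the median of all genes was -0.02. By transcript length in the gene tables, all 22 members under 600 bases had a positive slope (median 0.75), as did 80.7% of all 575 genes of that length (median 0.55). For 600 to under 1500 bases it was 68 of 77 members (88.3%, median 0.37), against 53.5% of all 3380 genes of that length (median 0.04). For longer members it was 57 of 70 (81.4%, median 0.20), against 44.55% of all 10046 genes of that length (median -0.04). Of the members under 600 bases 3 were called (13.6%), and of all genes of that length 11.8% were called higher. The 4 called members were 509 to 717 bases long. Replicate 1, with the most starting RNA, had the shortest implied fragments, and replicate 2, with the least, had 57148 fibroblast marker counts against 5 and 130. Starting RNA, implied fragment length, the other cells of replicate 2 and any other difference between these libraries cannot be told apart with 3 of them.

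**Figure D5:**
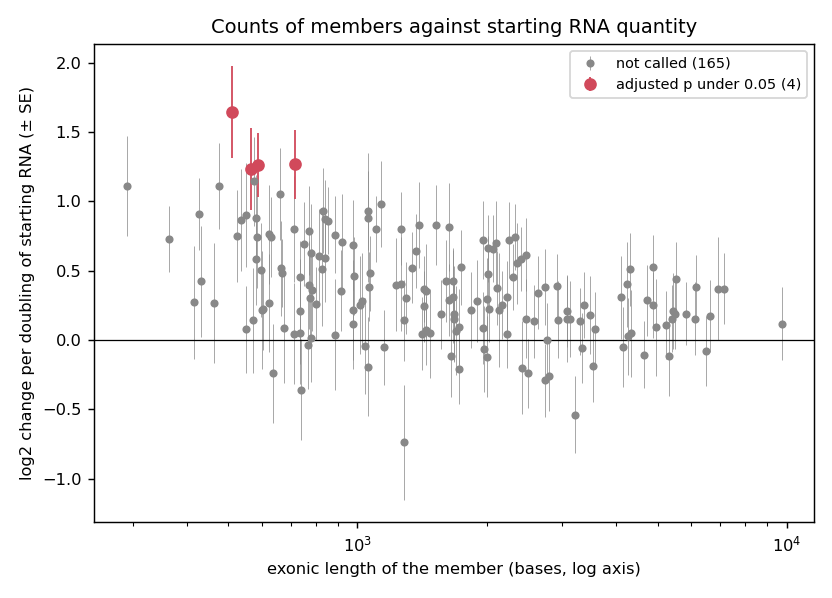
Log2 change in counts per doubling of starting RNA (vertical) against exonic length in bases (horizontal, log axis) for the 169 members. Bars are ± SE, derived from the slope and edgeR's F statistic. The 4 called members (red) are all short, and most other slopes are above 0.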

How the data were processed

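The authors deposited expected counts per gene in RSEM's layout, which rest on mm10 and GENCODE M21, per the file headers and notes. TPM values were deposited by the authors beside them. Transcript tables in the layout of kallisto, with estimated counts and TPM, were also deposited by the authors and were summed by gene. Aligner, strand setting and versions: not given in the sources used here. The members and gene lists were chosen with earlier results of these data known. The partner was the opposite-strand protein-coding gene with the largest overlap in M21. Expected counts were rounded and fitted with edgeR 4.0.16 (TMM, filterByExpr, glmQLFit, glmQLFTest, log2 starting quantity as the term, R 4.3.3) over all genes, with Benjamini-Hochberg adjustment at 0.05. The SE of an edgeR slope was derived as its absolute value divided by the square root of the F statistic. DESeq2 1.42.0 was an alternative. Rows without a gene (1.94, 0.269 and 0.386% of all counts in replicates 1, 2 and 3) were dropped. The fit was tested on simulated counts with the same spread for every gene. Differences by length or by other cells were not simulated, so the simulation cannot speak to those. The libraries were not copies of each other (chi-square per gene 62.3 to 104). Values per library are given for the 12 highest members, the 5 with the highest and lowest ratio to the partner, the 5 with the widest spread, the 5 with the largest difference between quantifications in each direction, members at listed genes and members past the slope threshold. Means are given for the genes nearest the level threshold, with SDs for some of them. Other members named by their partners were chosen after their values were seen. Of the other marker lists, 7 of 8 T and NK cell, 5 of 6 B cell and 5 of 6 erythroid markers stayed at 3 counts or fewer in each library. Other settings were the level and count thresholds, the table read, the pseudocount, the partner rule, the start distance, the normalization, the low-count filter and leaving out each replicate. Scales for the spread, all RefSeq windows, the sense-intronic comparison and the split by length were chosen after seeing the data.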

Additional observations from a re-analysis of the deposited data

How the results depend on the processing

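The number of members was 290 at a mean TPM of at least 2, 102 at 10 and 502 by the kallisto-layout tables. Leaving out 1 replicate gave 170 to 184 members. The median level was 16.8 TPM in the kallisto-layout tables and 11.2 to 12.1 TPM with 1 replicate left out. The median ratio to the partner was -3.30 in CPM, which do not divide by length, and -1.98 to -1.86 with 1 replicate left out. Members with a start within 500 bases of the partner's numbered 5, against 13 within 1000. Members at 5 TPM or more in the kallisto-layout tables numbered 165 to 166 with 1 replicate left out. The median coefficient of variation was 15.9% without replicate 1 and 15.9 to 27.6% over all such settings.

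For the slope, the DESeq2 Wald test called 2 members, and edgeR without a low-count filter called 12 members and 1348 genes. On the kallisto-layout counts edgeR called 0 members and 51 genes. There its unadjusted p was under 0.05 for 29 of 167 members and 1709 of 23176 genes. In the DESeq2 Wald test Gm15726 (adjusted p = 0.11) and Gm16006 (adjusted p = 0.085) were the members that lost their call. In the kallisto-layout counts all 4 lost it by edgeR, with slopes of 0.74 for Gm37787, 0.54 for Gm20234, 0.70 for Gm15726 and 0.94 for Gm16006. DESeq2's size factors in edgeR kept 4 calls. The causes were not tested. The slope could not be fitted with a replicate left out, since 2 libraries leave no residual degrees of freedom. No paired analysis was possible because all libraries belong to 1 group. A further 30 antisense genes met the level threshold but had under 20 counts in a library, and counts this low are imprecise.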
